A study of Mus musculus with 29 samples.

Results

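RNA bound to tagged microglial ribosomes was compared between 5xFAD mice that carried an inducible form of the stress kinase PKR (iPKR) and 5xFAD mice that carried the ribosomal tag alone. The comparison takes 8 of the 29 libraries of the series, 4 labelled 5xFAD iPKR and 4 labelled 5xFAD TRAP, chosen by their labels alone. Each library is polyA RNA from the cortex of a mouse aged 6 months, pulled down with a GFP antibody. The plain-tag mice had the genotype 5xFAD;Cx3cr1CreErt2/+;Eef1a1LSL.eGFPL10a/+. The iPKR mice had the genotype 5xFAD;Cx3cr1CreErt2/+;Eef1a1LSL.NS3.eGFPL10a.iPKR/+, which puts the same tag in one construct with the viral protease NS3 and the kinase. Both groups received 6 doses of 100 mg/kg tamoxifen to switch on Cre. Both also received VEGF (1 µg/kg) followed by ASV (5 mg/kg by mouth), repeated for 4 weeks from 5 months of age. What the groups share therefore includes the 5xFAD transgenes, Cre, 1 copy of Cx3cr1 given up to it, tamoxifen, VEGF and ASV. They differ in the Eef1a1 allele as a whole, so the kinase, NS3 and the locus design cannot be told apart, and no 5xFAD iPKR mice without ASV enter the comparison. Cx3cr1-CreERT2 is active in border macrophages of the brain as well as in microglia.

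PKR (gene Eif2ak2) is a kinase of the translation factor eIF2α. Phosphorylated eIF2α lowers translation in general while raising that of a few messages, among them the one for the transcription factor ATF4, which turns on genes of amino acid supply, redox balance and feedback; this programme is the integrated stress response. In 5xFAD mice, transgenes driven in neurons by the Thy1 promoter, mutant human APP among them, lead to amyloid plaques, and microglia around them take up a disease-associated state with high Apoe, Trem2, Cst7 and Itgax and lower levels of homeostatic genes such as Tmem119 and P2ry12. Translating ribosome affinity purification reads the messages held by tagged ribosomes, together with whatever untagged RNA stays on the beads.

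The 4 plain-tag libraries held 3.243, 2.052, 4.465 and 4.903 M counts, and the 4 iPKR libraries 2.489, 1.662, 8.198 and 12.496 M. In each group replicates 1 and 2 belong to labelled batch 1 and replicates 3 and 4 to batch 2. The labels give 1 female among the plain-tag mice and 3 among the iPKR mice. In 8 of all 29 libraries the Y-linked reads went against the labelled sex, 2 of them in the iPKR group (replicates 1 and 2) and 0 in the plain-tag group. Those 2 libraries also held the highest shares of neuronal RNA among the 8, and several of the counts below, not all, are given without them too. The labels do not say which samples were pooled or split, so p-values measure the spread between libraries. That spread was estimated over all 29 libraries of the series, not over these 8 alone.

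Microglial messages were lower in the iPKR libraries. The summed share of 33 pan-microglial genes was 5.39, 5.69, 6.62 and 6.73% of counts in the plain-tag libraries and 0.886, 0.252, 2.20 and 2.00% in the iPKR libraries, so every iPKR library lay below every plain-tag library and replicate 2 was lowest. The group means were 6.11 ± 0.665% and 1.33 ± 0.924% (SD, n = 4 each). Genes were called at a Benjamini-Hochberg adjusted p under 0.05 from edgeR's quasi-likelihood test, which called 7704 of 16074 genes tested (47.9%), 4015 higher (25.0%) and 3689 lower (23%). The 2 groups did not overlap in CPM (counts scaled to a common library size) for 42.0% of genes tested, 19.9% with iPKR higher and 22.1% with iPKR lower. All 33 pan-microglial genes were apart in this sense, and 32 of them fell and 0 rose, with a median log2 difference of -2.60 where the median over all genes tested was 0.21. Without iPKR replicates 1 and 2 the test called 6018 of 17256 genes, 3310 higher and 2708 lower, and 32 pan-microglial genes were still called lower, with a median of -2.14. These are shares of each library. In bulk libraries such as these, fewer tagged microglia, less tagged RNA per microglial cell and more untagged RNA on the beads cannot be told apart.

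Among homeostatic genes, 15 of the 16 tested fell and 0 rose (median log2 difference -2.77), and 14 fell and 0 rose without iPKR replicates 1 and 2. Siglech, a lectin receptor marking microglia, stood at 1649, 1793, 1854 and 1992 CPM in the plain-tag libraries and at 166, 23.1, 330 and 302 in the iPKR libraries. The groups were far apart, and the log2 difference was -3.41 ± 0.53 (SE, adjusted p = 1.074e-05). Tmem119, a membrane protein marking resident microglia, gave 1391, 1548, 2227 and 2740 CPM with the plain tag against 199, 13.6, 491 and 374 CPM with iPKR (-3.02 ± 0.60, adjusted p = 0.0001687). Cx3cr1, the fractalkine receptor whose locus carries Cre in both groups, fell by 2.87 ± 0.78 on the log2 scale (adjusted p = 0.003438). Csf1r, the receptor on which microglial survival depends, fell by 2.25 ± 0.28 (adjusted p = 8.321e-07). Sall1, a transcription factor of microglial identity, fell by 2.05 ± 0.47 (adjusted p = 0.0007407). The member that was not called was Mef2c, a transcription factor that neurons also express, at 837, 825, 442 and 427 CPM with the plain tag and 863, 1174, 337 and 310 CPM with iPKR. Its groups overlapped, with both batch 1 pairs above both batch 2 pairs, and its small difference changed sign between settings.

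**Figure D1:**
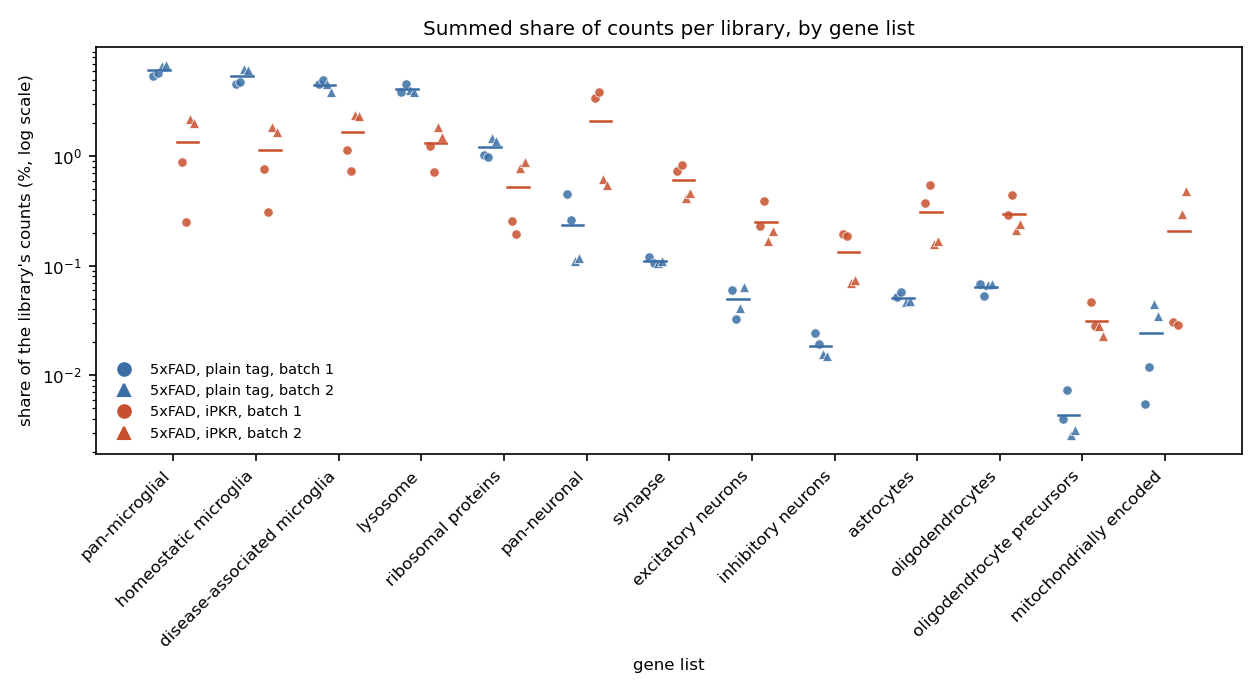
Each point is the summed share of a library's counts (%, log axis) in a gene list, for 4 plain-tag (blue) and 4 iPKR (orange) libraries, with circles for batch 1, triangles for batch 2 and short lines for group means. The iPKR libraries lie below all plain-tag libraries for pan-microglial, homeostatic, disease-associated, lysosomal and ribosomal protein genes, and above them for neuronal, synaptic and astrocytic genes.

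Disease-associated genes fell with them, though by less at the median. Of 32 tested, 25 fell and 0 rose, with a median log2 difference of -2.13. Cst7, a cystatin of plaque-associated microglia, stood at 2358, 2410, 2091 and 1534 CPM with the plain tag and at 275, 23.1, 671 and 600 CPM with iPKR (-2.95 ± 0.58, adjusted p = 0.0001435). Every iPKR library lay below every plain-tag library. Trem2, the lipid-sensing receptor that microglia need to enter this state, gave 1789, 1984, 2265 and 1917 CPM against 260, 54.5, 649 and 512 CPM (-2.80 ± 0.52, adjusted p = 8.361e-05). Apoe, the apolipoprotein of microglia and astrocytes, gave 6945, 6521, 6289 and 3911 CPM against 1927, 1133, 3057 and 3193 CPM (-1.78 ± 0.37, adjusted p = 0.000258), with the nearest libraries of the groups close together. Clec7a, a lectin receptor of plaque-associated microglia, fell by 2.99 ± 0.79 (adjusted p = 0.002938), and differed by -2.10 (adjusted p = 0.0744) without iPKR replicates 1 and 2. The tetraspanin Cd9 fell by 2.80 ± 0.37 (adjusted p = 1.516e-06), and Ctsd, the lysosomal protease cathepsin D, by 2.60 ± 0.33 (adjusted p = 8.04e-07). Without those libraries 19 members were called lower and 1 higher.

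Messages of neurons and of other glia moved the opposite way. All 11 tested pan-neuronal genes rose (median log2 difference 2.44), as did all 20 synaptic, 12 excitatory and 11 inhibitory neuron genes. The pan-neuronal share was 0.452, 0.26, 0.11 and 0.117% of counts in the plain-tag libraries and 3.39, 3.89, 0.617 and 0.547% in the iPKR libraries. All 4 iPKR libraries exceeded all plain-tag libraries, and the batch 1 libraries were high in both groups. Grin2b, an NMDA receptor subunit, stood at 14.0, 10.4, 14.3 and 14.5 CPM with the plain tag and at 90.1, 101, 78.7 and 116 CPM with iPKR (3.02 ± 0.31, adjusted p = 8.488e-08). Rbfox3, the neuronal splicing factor NeuN, gave 53.7, 42.7, 53.6 and 54.7 CPM against 186, 213, 244 and 224 CPM (2.11 ± 0.22, adjusted p = 9.168e-08). Neither gene showed the batch split of the summed share. Slc17a7, the vesicular glutamate transporter of excitatory neurons, rose by 2.06 ± 0.28 (adjusted p = 2.014e-06). Without iPKR replicates 1 and 2, 9 pan-neuronal, 19 synaptic, 8 excitatory and 6 inhibitory genes were still called higher and 0 lower.

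Of 10 astrocyte genes, 9 rose (median 2.56), and all 12 oligodendrocyte genes and all 5 precursor genes rose (medians 2.05 and 2.78). When iPKR replicates 1 and 2 were left out, 7 astrocyte, 7 oligodendrocyte and 5 precursor genes were called higher and 0 lower. Fgfr3, a growth factor receptor of astrocytes, stood at 6.34, 3.84, 4.66 and 11.2 CPM with the plain tag and at 48.3, 58.6, 43.3 and 53.7 CPM with iPKR (3.10 ± 0.31, adjusted p = 7.667e-08), with no overlap. Aldoc, the glycolytic aldolase of astrocytes, rose by 2.90 ± 0.39 (adjusted p = 1.456e-06), and Mbp, the myelin basic protein of oligodendrocytes, by 1.58 ± 0.31 (adjusted p = 0.0001651). Vascular genes were near the detection limit: 4 of 12 endothelial genes rose and 1 fell, and 3 of 8 mural genes rose. Of 10 border macrophage genes 0 rose and 3 fell, among them Mrc1, the mannose receptor (-2.20 ± 0.65, adjusted p = 0.006381). With iPKR replicates 1 and 2 left out, 2 of the 10 fell. These few calls are to be read against the 25.0% of all genes tested that rose and the 23% that fell. The summed border macrophage share was 0.0149 to 0.0196% in the plain-tag libraries, 0.0015 and 0.00285% in iPKR replicates 2 and 1, and 0.0154 and 0.018% in replicates 4 and 3. Whether the neuronal and glial messages came from RNA held by the beads or from tagged ribosomes in those cells was not tested.

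The genes with the smallest p-values were of several kinds. Anks1b, a postsynaptic scaffold protein, stood at 57.4, 48.2, 63.0 and 63.3 CPM with the plain tag and at 277, 300, 306 and 316 CPM with iPKR (2.45 ± 0.21, adjusted p = 3.542e-08). Replicates hardly differed within either group. Srcin1, a neuronal inhibitor of Src kinase, rose by 2.66 on the log2 scale, Slc30a3, the zinc transporter of synaptic vesicles, by 2.55, and Car2, a carbonic anhydrase of oligodendrocytes, by 2.81. Mapk4, an atypical kinase, rose by 2.71 and Bdh1, the enzyme of ketone body use, by 2.93. In the other direction Bin1, a membrane-bending protein whose human gene is a risk locus for Alzheimer's disease, stood at 1018, 997, 1047 and 1080 CPM with the plain tag and at 252, 191, 282 and 254 CPM with iPKR (-2.17 ± 0.20, adjusted p = 3.816e-08). Tpm3, a tropomyosin, gave 837, 860, 849 and 926 CPM against 203, 128, 285 and 203 CPM (-2.18 ± 0.20). Both stood at nearly one level in the plain-tag libraries and fell in all 4 iPKR libraries. Gtf2h2, a subunit of the general transcription factor TFIIH, fell by 1.92, the endosomal SNARE Stx7 by 2.19, Nipsnap3b by 1.91 and Cryl1, a crystallin related to dehydrogenases, by 2.21.

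The targeted and construct genes came out as follows. Eef1a1, which encodes the elongation factor of translation and whose locus hosts both tag alleles, fell by 1.48 ± 0.29 (adjusted p = 0.0001428). Rpl10a, the ribosomal protein used as tag, stood at 86.4, 91.5, 110 and 114 CPM with the plain tag and at 17.3, 3.55, 50.7 and 58.6 CPM with iPKR (-1.78 ± 0.42, adjusted p = 0.001034), without overlap. Whether reads of the tag, NS3 or the kinase of the construct count to a mouse gene is not given in the sources used here, so these levels do not check the alleles. Eif2ak2, mouse PKR itself, gave 14.7, 8.77, 16.3 and 29.2 CPM against 9.26, 2.96, 1.64 and 4.29 CPM, with iPKR replicate 1 inside the plain-tag range. Its fall of 2.21 ± 0.87 (adjusted p = 0.03883) was lost without plain-tag replicate 1, 3 or 4 or iPKR replicate 2, 3 or 4 (-1.81 to -2.32, adjusted p 0.0521 to 0.116).

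Thy1, a neuronal surface protein whose promoter drives the 5xFAD transgenes, gave 45.4, 37.8, 29.8 and 25.5 CPM against 363, 760, 138 and 173 CPM (3.15 ± 0.55, adjusted p = 4.05e-05). App, which may also take reads of the human APP transgene, gave 374, 465, 268 and 213 CPM against 3875, 4590, 430 and 307 CPM. Its rise of 2.28 ± 0.56 (adjusted p = 0.001527) rested on the iPKR libraries of batch 1: it was 1.30 (adjusted p = 0.0528) without iPKR replicate 2 and -0.02 without both.

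The central question of the design is whether the kinase raised the integrated stress response. Of 30 tested genes listed as ATF4 and stress response targets, 10 rose and 8 fell, where 25.0% of all genes tested rose and 23% fell. Their median log2 difference was 0.17, near the 0.21 of all genes tested. The share of counts in the list was 0.157 to 0.175% with the plain tag and 0.142 to 0.186% with iPKR. Without iPKR replicates 1 and 2, 6 of 31 rose and 9 fell (median -0.04), where 3310 and 2708 of all 17256 genes tested did and the median was 0.23. ATF4 works by binding, with C/EBP partners, an element whose core reads TGATGNAAN. A search of both strands of RefSeq promoters (GRCm38.p6, 250 bases before to 50 after the first listed start of a gene) found it in 1091 of 27025 promoters (4.0%) and in 267 of 11501 promoters of tested genes (2.3%). It was found in 9 of the 26 list members with a promoter in that table (34.6%): 5 of 8 that rose, 3 of 8 that fell and 1 of 10 that were not called. The elements of 3 members that rose and 3 that fell are shown so that they can be compared, with the match in capitals, read 5′ to 3′ on the strand of the gene. Trib3 and Slc1a4, which also rose, have their match at or after the start, and Slc7a11 has another close by.

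Asns (rose), chr6:7693214-7693242, minus strand: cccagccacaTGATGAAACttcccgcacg
Chac1 (rose), chr2:119351038-119351066, plus strand: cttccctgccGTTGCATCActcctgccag
Slc7a11 (rose), chr3:50443661-50443689, minus strand: ctcatgtggcTGATGCAAAcctggagaat
Atf3 (fell), chr1:191183426-191183454, minus strand: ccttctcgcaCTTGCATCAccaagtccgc
Nupr1 (fell), chr7:126625563-126625591, minus strand: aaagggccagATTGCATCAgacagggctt
Herpud1 (fell), chr8:94386306-94386334, plus strand: accacggcggGTTGCATCAgcccgcaccc

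The element thus stood in promoters of members that rose and of members that fell. Among the members that rose, Asns, asparagine synthetase, stood at 42.7, 37.3, 26.9 and 18.9 CPM with the plain tag and at 347, 494, 83.1 and 50.0 CPM with iPKR (2.64 ± 0.51, adjusted p = 0.0001103). All 4 iPKR libraries were above the plain-tag libraries, those of batch 1 by far more, and without both of these the difference was 1.26 (adjusted p = 0.0521). Slc1a4, a transporter of serine and other neutral amino acids, gave 6.01, 11.5, 11.9 and 3.04 CPM against 86.9, 108, 27.3 and 23.2 CPM (2.73 ± 0.49, adjusted p = 5.408e-05). Slc7a11, the cystine-glutamate exchanger, rose by 2.25 ± 0.60 (adjusted p = 0.003021). Cth, the cystathionine lyase that makes cysteine, gave 0, 0.548, 1.81 and 0 CPM against 10.5, 16.6, 5.64 and 3.04 CPM (4.04 ± 1.17, adjusted p = 0.005603). Its plain-tag levels were at the limit of detection, and its log2 difference was 6.16 without plain-tag replicate 3 and 2.40 (adjusted p = 0.141) without iPKR replicates 1 and 2.

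Other rises were not of this shape. Chac1, which breaks down glutathione, stood at 2.00, 2.74, 2.85 and 4.20 CPM with the plain tag and at 11.3, 9.47, 20.8 and 19.7 CPM with iPKR (2.53 ± 0.54, adjusted p = 0.0003463). Trib3, a pseudokinase that feeds back on ATF4, gave 6.34, 4.93, 11.1 and 10.7 CPM against 9.66, 5.33, 97.3 and 93.9 CPM (2.55 ± 0.70, adjusted p = 0.003729). In batch 1 the groups of Trib3 overlapped, whereas in batch 2 both iPKR libraries lay far above. Even so, 0 of the 30 stress response genes were called for the difference between the batches. Vldlr, a lipoprotein receptor, gave 18.4, 12.6, 11.1 and 7.71 CPM against 118, 83.5, 53.5 and 60.6 CPM (2.48 ± 0.40, adjusted p = 1.351e-05), without overlap. Ppp1r15a, the stress-induced phosphatase subunit GADD34 that reverses eIF2α phosphorylation, gave 20.4, 14.8, 30.1 and 34.3 CPM against 20.1, 8.88, 93.3 and 97.0 CPM, again high only in the iPKR libraries of batch 2. Its rise of 1.17 ± 0.42 (adjusted p = 0.02436) was lost with the replicate number as a block (1.19, adjusted p = 0.0632). It was also lost without plain-tag replicate 2 (1.10, adjusted p = 0.0533) or 3 (1.22, 0.0518) or iPKR replicate 3 (0.91, 0.0902) or 4 (0.81, 0.11).

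Per library total, the transcription factors of the programme did not rise. Atf4 itself stood at 161, 153, 148 and 163 CPM with the plain tag and at 59.6, 71.0, 134 and 120 CPM with iPKR. All iPKR libraries lay below all plain-tag libraries, yet the difference of -0.66 ± 0.29 missed the threshold (adjusted p = 0.06074) and passed it without iPKR replicate 3 (-0.84, adjusted p = 0.0245) or 4 (-0.78, adjusted p = 0.0336). Ddit3, the stress factor CHOP, differed by -0.66 ± 0.34 (adjusted p = 0.1129). Atf3, induced downstream of ATF4 and by many other signals, gave 99.8, 121, 80.3 and 60.0 CPM against 12.9, 4.14, 23.2 and 9.96 CPM (-2.93 ± 0.65, adjusted p = 0.0005185). Cebpb, a partner of ATF4 that is also a myeloid factor, gave 135, 136, 169 and 188 CPM against 27.0, 8.88, 36.8 and 38.1 CPM (-2.35 ± 0.35, adjusted p = 4.962e-06). Both fell in all 4 iPKR libraries. Cebpg, another partner, fell by 1.98 ± 0.37 (adjusted p = 8.854e-05), Nupr1, a stress-induced chromatin protein, by 1.96 ± 0.41 (adjusted p = 0.0003076), Mthfd2, of mitochondrial folate use, by 1.49 ± 0.34 (adjusted p = 0.0008143), and Herpud1, of protein disposal from the endoplasmic reticulum (ER), by 1.12 ± 0.28 (adjusted p = 0.001865). A message's level on ribosomes does not measure eIF2α phosphorylation or ATF4 protein. Pan-microglial genes had a median of -2.60 per library total. In such levels a change within microglia and a change in the share of microglial RNA cannot be told apart. The list is given relative to microglial messages further below.

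**Figure D2:**
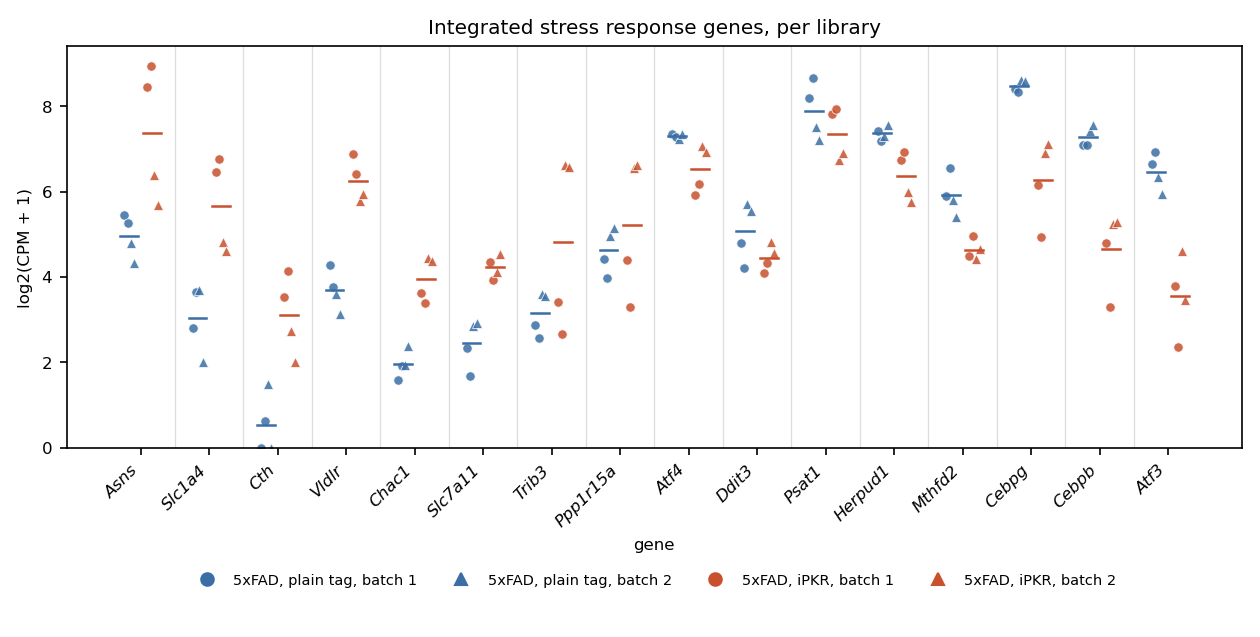
Levels of 16 stress response genes per library as log2(CPM + 1), with plain-tag libraries in blue, iPKR libraries in orange, circles for batch 1, triangles for batch 2 and short lines for group means. Asns, Slc1a4, Vldlr and Chac1 lie higher in all iPKR libraries, Atf3, Cebpb and Cebpg lie lower in all of them, and Trib3 and Ppp1r15a are high only in the iPKR libraries of batch 2.

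Upstream of ATF4, 1 of 15 genes for the eIF2 kinases, eIF2, its exchange factor and its phosphatases rose and 7 fell (median -0.73). Eif2s1, which encodes eIF2α, stood at 147, 184, 177 and 139 CPM with the plain tag and at 133, 126, 73.1 and 67.4 CPM with iPKR (-0.86 ± 0.24, adjusted p = 0.004748). The iPKR libraries of batch 1 lay just under the plain-tag range and those of batch 2 well under it. Eif2ak1, the haem-regulated kinase, differed by -0.73 ± 0.27 (adjusted p = 0.02859), a call lost with the replicate block (-0.67, adjusted p = 0.107), without plain-tag replicate 4 (-0.59, 0.0832) and without iPKR replicate 4 (-0.44, 0.148). Eif2ak3, the ER kinase PERK, differed by -0.78 ± 0.35 (adjusted p = 0.06329) and Eif2ak4, the amino acid sensor GCN2, by -0.29 ± 0.39 (adjusted p = 0.5629). Ppp1ca, the catalytic phosphatase subunit, fell by 1.35 ± 0.23 (adjusted p = 2.881e-05).

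Per library total, where pan-microglial genes had a median of -2.60, genes of the translation machinery fell as a group. Of 74 ribosomal protein genes 71 fell and 0 rose (median -1.77), and their summed share went from 1.03, 0.992, 1.48 and 1.37% to 0.255, 0.195, 0.774 and 0.883%, with no overlap. Of 21 translation factors 13 fell and 0 rose (median -0.93), among them Eif5a, the hypusine-bearing elongation factor (-1.59 ± 0.25, adjusted p = 1.391e-05). Without iPKR replicates 1 and 2, 50 ribosomal protein genes and 13 translation factors were called lower and 0 higher. Of 20 tRNA synthetases, several of which are known ATF4 targets, 0 rose and 2 fell (median -0.08). In the fit of group by batch, 6 of them rose and 1 fell in batch 1 (median 0.43), while 0 rose and 6 fell in batch 2 (median -0.57), and 0 of the 20 were called for the difference between batches. Of 18 ER chaperone and folding genes, 2 rose and 8 fell (median -0.50). Those that fell include Xbp1, the transcription factor of the unfolded protein response (-1.92 ± 0.27, adjusted p = 2.723e-06), and P4hb, protein disulfide isomerase (-1.28 ± 0.21, adjusted p = 2.277e-05).

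Because microglial genes fell together, the same model was refitted with library size taken as the summed counts of the pan-microglial list, which asks how a gene moved relative to microglial messages. On this scale the median over all genes was 3.22, and 13422 genes were called (83.5%), 13395 higher (83.3%) and 27 lower (0.168%), so a rise here also holds for any message that came from other cells. Of the 16 homeostatic genes 3 rose and 1 fell (median 0.14), and of the 32 disease-associated genes 12 rose and 0 fell (median 0.61), both far below that background. The disease-associated sum divided by the pan-microglial sum was 0.743, 0.787, 0.59 and 0.486 in the plain-tag libraries and 1.24, 2.86, 1.01 and 1.09 in the iPKR libraries. The groups did not overlap, and replicate 2, with the fewest microglial counts, was highest. The homeostatic sum divided the same way overlapped, at 0.732 to 0.862 against 0.671 to 0.957.

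Named members show how uneven this was. Fth1, the ferritin heavy chain, rose most clearly on this scale (3.13 ± 0.43, adjusted p = 6.772e-07), while its level was 1916, 1512, 1836 and 2084 CPM with the plain tag and 844, 907, 3017 and 4298 CPM with iPKR, where batch 1 lay below and batch 2 above the plain-tag range. Many cell types make ferritin. Csf1, a ligand of Csf1r, rose by 2.14 ± 0.60 (adjusted p = 0.002188), and was not called without both iPKR libraries of batch 1 (1.59, adjusted p = 0.0567). Apoe rose by 1.37 ± 0.46 (adjusted p = 0.007856), but by 0.68 (adjusted p = 0.147) without iPKR replicate 2. It was not called with only the 2 groups in the fit (1.57, adjusted p = 0.103). Trem2 (0.00, adjusted p = 0.9921) and Cst7 (-0.50, adjusted p = 0.4017) were not called. Among homeostatic genes Mef2c rose by 3.31 ± 0.68 (adjusted p = 0.0001186), by 1.76 without iPKR replicate 2, and Fcrls, an Fc receptor-like protein, by 1.05 ± 0.34 (adjusted p = 0.006151). The Fcrls call was lost with only the 2 groups in the fit (1.14, adjusted p = 0.161). Csf1r (0.63, adjusted p = 0.1218) and Tmem119 (-0.49, adjusted p = 0.2506) were not called. Siglech was the homeostatic gene that fell further than the pan-microglial sum (-0.74 ± 0.33, adjusted p = 0.04022). That call was lost with the replicate block (-0.73, adjusted p = 0.0729) and with only the 2 groups in the fit (-1.01, adjusted p = 0.243). It was also lost without plain-tag replicate 1 or 2 or iPKR replicate 2, 3 or 4. Of the 30 stress response genes 25 rose and 0 fell on this scale (median 3.32), against 83.3% of all genes. Ribosomal protein genes, lower per library total, had 56 of 74 higher and 0 lower here (median 1.05). Translation factors had 21 of 21 higher (median 2.19).

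**Figure D3:**
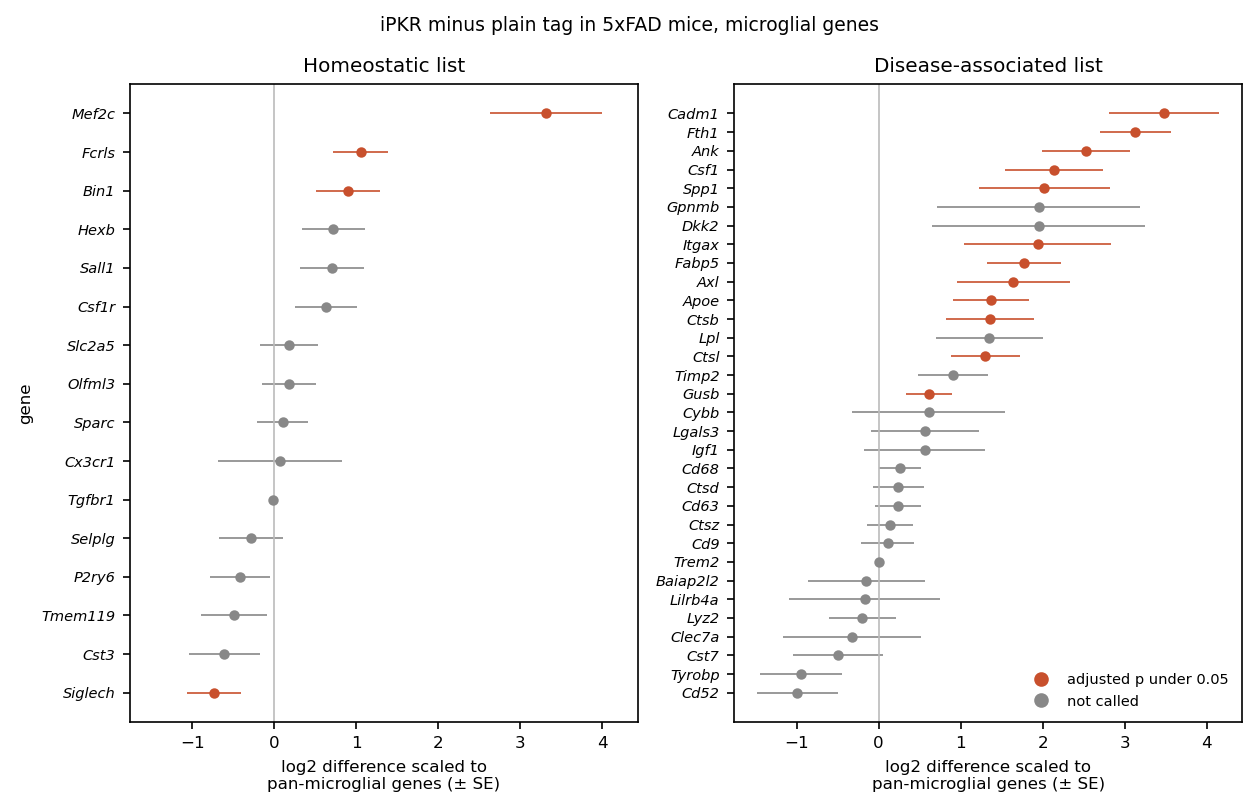
Log2 differences (iPKR minus plain tag, ± SE) of microglial genes after scaling each library to its summed pan-microglial counts, with called genes in orange and others in grey. The homeostatic list has a median of 0.14, with 3 of 16 genes called above 0. The disease-associated list has a median of 0.61, with 12 of 32 called above 0. Fth1 at 3.13, Mef2c at 3.31 and Csf1 at 2.14 are among those above, and Siglech at -0.74 is the called gene below.

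Immune genes were again given per library total. Of 9 class I presentation genes 7 fell and 0 rose (median -1.85), and 5 fell and 0 rose without iPKR replicates 1 and 2. H2-D1, a class I heavy chain, stood at 1495, 1207, 1347 and 2463 CPM with the plain tag and at 308, 178, 785 and 934 CPM with iPKR (-1.70 ± 0.42, adjusted p = 0.001658). The groups did not overlap, but without iPKR replicates 1 and 2 the difference was -1.04 (adjusted p = 0.0766). Of 6 class II genes 3 fell and 0 rose (median -1.44). Cd74, the class II invariant chain, gave 432, 467, 462 and 547 CPM against 110, 31.4, 332 and 572 CPM, so that iPKR replicate 4 was the highest library of all. Its fall of 1.63 ± 0.57 (adjusted p = 0.01944) was lost with the replicate block (-1.44, adjusted p = 0.0697), without iPKR replicate 1 (-1.44, 0.0597) and without iPKR replicate 2 (-1.11, 0.106). H2-Aa, a class II chain, gave 31.7, 58.6, 24.1 and 47.9 CPM against 10.9, 1.78, 49.8 and 120 CPM and was not called (-0.51 ± 0.94, adjusted p = 0.6757), low in iPKR batch 1 and not in batch 2.

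Of 19 interferon response genes 8 fell and 0 rose (median -1.54), and 4 fell and 0 rose without iPKR replicates 1 and 2. Bst2, the antiviral tetherin, fell by 2.84 ± 0.51 (adjusted p = 5.55e-05). Isg15, a ubiquitin-like protein induced by interferon, gave 13.4, 10.4, 22.0 and 83.9 CPM against 4.83, 0, 6.16 and 6.02 CPM (-2.64 ± 0.71, adjusted p = 0.003416), with plain-tag replicate 4 well above the rest. Of 14 cytokine and chemokine genes 7 fell and 1 rose, and 4 fell and 1 other rose without iPKR replicates 1 and 2. Ccl4, a chemokine of activated microglia, gave 284, 324, 354 and 268 CPM against 14.5, 0.592, 47.6 and 47.9 CPM (-3.61 ± 0.53, adjusted p = 4.614e-06). Ptgs2, cyclooxygenase-2, which neurons also make, was the one that rose (2.76 ± 0.81, adjusted p = 0.006486), but was not called without iPKR replicates 1 and 2 (1.98, adjusted p = 0.103). Of 14 complement genes 8 fell and 2 rose. C1qa, the first chain of C1q, gave 3691, 4107, 5423 and 5884 CPM against 449, 67.5, 1125 and 1236 CPM (-3.12 ± 0.59, adjusted p = 9.698e-05). C4b, a complement component known from astrocytes and oligodendrocytes, gave 6.34, 6.58, 2.85 and 0 CPM against 143, 191, 22.7 and 19.0 CPM (4.26 ± 0.91, adjusted p = 0.0003694), above the plain-tag libraries in all 4. Of 28 lysosomal genes 24 fell and 0 rose (median -1.82). Scaled to pan-microglial genes, 0 members of the class I, class II, interferon, cytokine, complement and lysosomal lists fell. On that scale 3 of 9, 2 of 6, 6 of 19, 3 of 14, 6 of 14 and 19 of 28 rose, in that order, against 83.3% of all genes. Their medians were 0.59 to 1.33, where that of all genes was 3.22. Some members, C1qa among them, are also in the pan-microglial list.

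Several metabolic lists had calls in both directions, to be read against the 25.0% of all genes that rose and the 23% that fell. Of 21 cholesterol synthesis genes 7 rose and 1 fell (median 0.53), but 1 rose and 1 fell without iPKR replicates 1 and 2. Of 19 fatty acid synthesis genes 10 rose and 3 fell (median 0.93). Elovl6, a fatty acid elongase, gave 13.7, 6.03, 11.4 and 34.1 CPM against 60.4, 65.7, 133 and 178 CPM (3.09 ± 0.36, adjusted p = 2.643e-07), higher in both batches, and Scd1, a desaturase, rose by 2.76 ± 0.43 (adjusted p = 9.257e-06). Of 18 glycolytic genes 4 rose and 3 fell, near the share of all genes, with 9 higher and 3 lower in batch 1 (median 0.78) and 2 higher and 3 lower in batch 2 (median -0.49). For the difference between batches 0 of the 18 were called. Pfkp, the phosphofructokinase of platelets and neurons, rose by 2.94 ± 0.52 (adjusted p = 4.627e-05), whereas Hk2, a hexokinase, fell by 2.62 ± 0.38 (adjusted p = 3.698e-06). Of 15 oxidative stress genes 4 rose and 5 fell, Gpx1, a glutathione peroxidase, among the latter (-2.58 ± 0.44, adjusted p = 3.143e-05). Of 17 immediate-early genes 6 rose and 5 fell. Nr4a1, an activity-induced nuclear receptor, rose by 2.54 ± 0.51 (adjusted p = 0.0002107) and the zinc finger factor Egr1 by 1.87 ± 0.47 (adjusted p = 0.001703).

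Among autophagy genes Atg7, the enzyme that activates the ubiquitin-like proteins of autophagy, stood at 748, 593, 251 and 262 CPM with the plain tag and at 4001, 2295, 7665 and 4740 CPM with iPKR (3.65 ± 0.51, adjusted p = 2.591e-06). The groups did not overlap, and the iPKR library with the highest level was replicate 3, of batch 2. Of the 13 genes of the list 3 rose and 5 fell, and Tfeb, the transcription factor of lysosome and autophagy genes, fell by 1.89 ± 0.33 (adjusted p = 3.828e-05). The summed share of the list, in which Atg7 weighs heavily, was 0.2 to 0.274% with the plain tag and 0.674 to 1.12% with iPKR.

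Mitochondrially encoded messages and nuclear noncoding RNAs also stood higher. All 7 tested mitochondrial genes rose (median 2.55). mt-Nd4, a complex I subunit, gave 6.01, 12.6, 43.8 and 36.7 CPM against 37.4, 30.2, 190 and 352 CPM (2.48 ± 0.38, adjusted p = 8.931e-06). Both groups were higher in batch 2, so the iPKR libraries of batch 1 overlapped with the plain-tag libraries of batch 2. Of 7 nuclear noncoding RNAs 5 rose (median 2.10). Malat1, which stays in the nucleus, gave 22.0, 35.6, 200 and 171 CPM against 90.6, 74.6, 581 and 678 CPM (2.10 ± 0.60, adjusted p = 0.00527). RNA that tagged cytoplasmic ribosomes would not hold thus stood higher in the iPKR libraries of each batch, and its part in the other rises was not tested.

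Since the batches differed, the comparison was also made within each in 1 model of group by batch, added after the data were seen. It called 6431 genes in batch 1 (40.0%, of all genes 18.0% higher and 22.0% lower) and 5421 in batch 2 (33.7%, 17.9% higher and 15.8% lower). Of the 7704 genes called over both, 7642 had the same sign in each. Those genes were chosen by the difference over the same libraries, so their shared sign is no test of whether the batches agree. Medians of microglial lists were lower in batch 1 (pan-microglial -3.34 against -2.16, homeostatic -3.31 against -2.26), and that of pan-neuronal genes was higher (2.99 against 1.75). The border macrophage median was -3.23 in batch 1 and -0.28 in batch 2, and that of class II genes -3.10 and -0.38. The stress response list had medians of 0.21 and -0.08. In each of these lists 0 members were called for the difference between the batches, so the medians describe 2 libraries per group and batch.

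**Figure D4:**
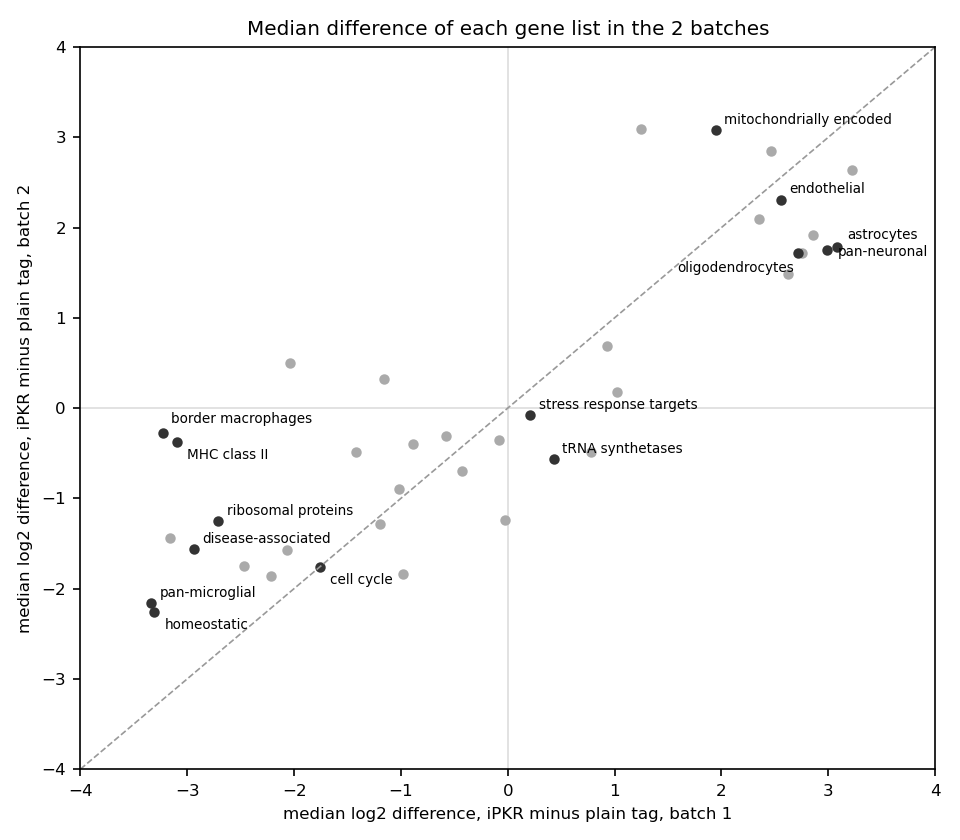
Median log2 difference (iPKR minus plain tag) of each of 39 gene lists in batch 1 (x axis) and in batch 2 (y axis), 2 libraries per group in each batch. Microglial lists lie in the lower left and neuronal and glial lists in the upper right, while border macrophage and class II genes are low in batch 1 and near 0 in batch 2. For border macrophage and class II genes, 0 members were called for the difference between the batches.

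The difference between the batches was itself past the threshold for 166 genes (1.03%), 42 with a higher value in batch 1 (0.261%) and 124 with a lower one (0.771%, so that 25.3% of calls were higher, or 51.6% of 190 with RLE size factors). This count rested on single libraries: with one library left out, so that the other of its batch was assumed to vary like the rest, it was 21, 23, 8 and 9 for plain-tag replicates 1 to 4, and 781, 4 and 14 for iPKR replicates 1, 2 and 4. Sqstm1, the autophagy receptor p62, Mag, a myelin glycoprotein, and Snap25, a synaptic SNARE, are named here after their values were seen. Sqstm1 stood at 922, 981, 604 and 599 CPM with the plain tag and at 6248, 3503, 441 and 374 CPM with iPKR, far above in batch 1 and below in batch 2 (batch difference 2.89 ± 0.49, adjusted p = 0.009222). Sod2, the mitochondrial superoxide dismutase, gave 167, 152, 120 and 118 CPM against 891, 578, 120 and 96.6 CPM (batch difference 2.32 ± 0.30, adjusted p = 0.001172). Over both batches it was called higher (1.13, adjusted p = 0.009618), but not without iPKR replicate 2 (0.82, adjusted p = 0.0792). Mag gave 55.4, 39.5, 63.0 and 61.9 CPM against 292, 433, 40.6 and 43.5 CPM (batch difference 3.51 ± 0.51, adjusted p = 0.002902). Its rise over both batches (1.46, adjusted p = 0.02396) was lost without plain-tag replicate 1 (1.30, 0.0798), plain-tag replicate 2 (1.19, 0.0965) or iPKR replicate 2 (0.58, 0.364). App had a batch difference of 2.76 ± 0.62 (adjusted p = 0.03667) and Atg7 one of -2.39 ± 0.44 (adjusted p = 0.0111). Snap25 gave 3793, 2108, 569 and 697 CPM against 26820, 29340, 2776 and 2272 CPM. It rose by 2.71 ± 0.49 (adjusted p = 5.196e-05), by 3.11 within batch 1 and 1.82 within batch 2, and without both iPKR libraries of batch 1 the difference was 1.11 (adjusted p = 0.0538). Unlike the other genes named here, Snap25 was not called for the difference between the batches.

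**Figure D5:**
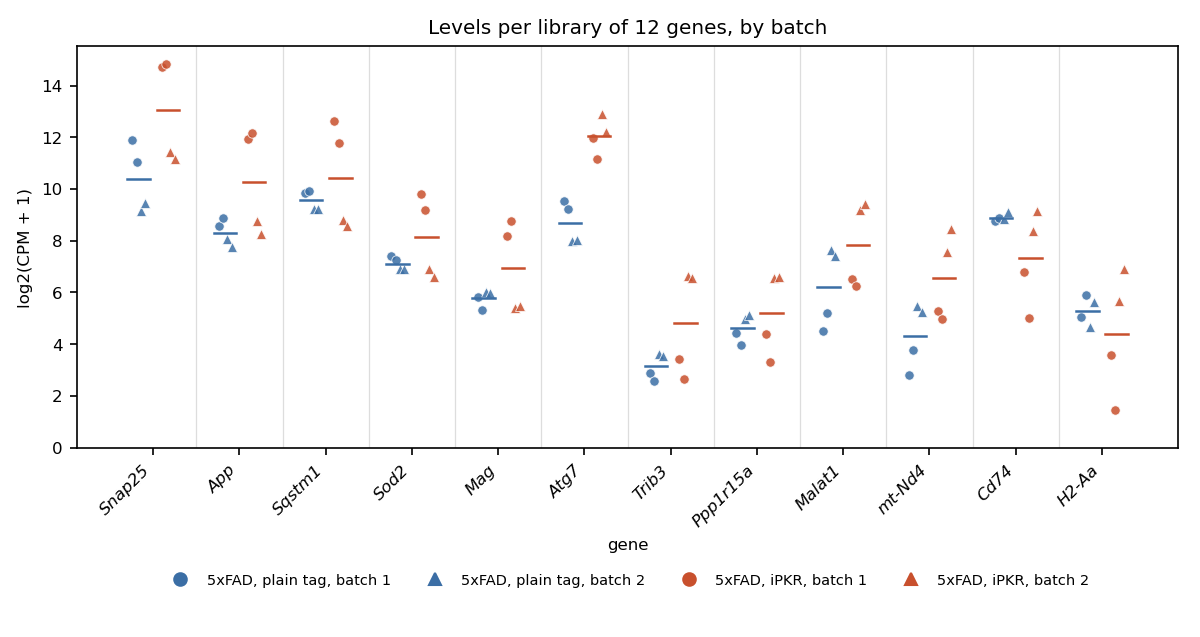
Levels of 12 genes per library as log2(CPM + 1), colours and symbols as in the plot of stress response genes. For Sqstm1, Sod2 and Mag the iPKR libraries of batch 1 lie above all others while those of batch 2 lie at or below the plain tag, and for Atg7, Trib3 and Ppp1r15a the iPKR libraries of batch 2 are highest. Snap25, Trib3 and Ppp1r15a were not called for the difference between the batches.

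Finally, the difference was set beside the one between iPKR mice with VEGF and ASV (n = 5) and plain-tag mice without VEGF or ASV (n = 5), neither with 5xFAD. The pairs of groups share no library, but the control here was untreated, so the 2 differences are not of the same kind. In this iPKR group the Y-linked reads of replicates 1, 3, 4 and 5 went against the labelled sex. It had 3 libraries in batch 1 and 2 in batch 2, against 4 and 1 for its control. Without 5xFAD, 9191 genes were called (57.2%, of all genes 30.5% higher and 26.7% lower), and 3417 genes were called higher and 3337 lower in both, with 6 called in opposite directions. All 33 pan-microglial genes fell (median -3.87), 7 stress response genes rose and 8 fell (median 0.02), and Atg7 rose by 4.47 (adjusted p = 4.989e-09). Of disease-associated genes, 3 rose and 20 fell without 5xFAD.

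The difference between the 2 differences was past the threshold for 6 genes (0.0373%), 1 higher with 5xFAD (0.00622%) and 5 lower (0.0311%), and 1084 had an unadjusted p under 0.05. This split by direction turned under other settings: 91 were higher and 12 lower without 5xFAD iPKR replicate 2, 300 and 63 without both iPKR libraries of batch 1, and 83 and 35 by DESeq2. Tlr12, a receptor for microbial profilin, fell by 2.34 with 5xFAD and by 8.46 without, a difference of 6.11 ± 1.00 (adjusted p = 0.01874). The gene model Gm1673 was another. Ubr3, a ubiquitin ligase, rose by 1.47 and 5.09 (difference -3.62 ± 0.64, adjusted p = 0.01874), the former lost with the replicate block (1.53, adjusted p = 0.0734). Sptan1, a spectrin chain, rose by 1.01 and 3.21 (difference -2.20 ± 0.41, adjusted p = 0.0279). Both disease-associated genes among the 6 were called in opposite directions. Fabp5, a fatty acid carrier, changed by -1.17 with 5xFAD and 1.64 without (difference -2.81 ± 0.50, adjusted p = 0.01874), and Ank, a phosphate transporter, by -0.77 and 1.25 (difference -2.02 ± 0.36, adjusted p = 0.01874). With 5xFAD, Fabp5 was not called without iPKR replicate 2 (-0.96, adjusted p = 0.0571), nor Ank without plain-tag replicate 2 (-0.44, adjusted p = 0.157). The count of 6 rested on single libraries. By the same edgeR test it was 103 without 5xFAD iPKR replicate 2, 0 without 5xFAD plain-tag replicate 1 (959 at an unadjusted p under 0.05), 2 without replicate 2 of that group and 1 without its replicate 3. It was 1, 3 and 10 without 5xFAD iPKR replicates 1, 3 and 4. Among mice without 5xFAD it was 0 (922 at an unadjusted p under 0.05) and 13 without plain-tag replicates 2 and 5, and 10 without iPKR replicate 1 or 5.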

How the data were processed

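The deposited table holds raw counts per gene symbol for 29 libraries, which the authors made from reads trimmed with Trim Galore. HISAT2 2.2.1, featureCounts 2.0.3 and the build mm10 are named too, per the submitters' processing notes. The annotation and strandedness are not given in the sources used here, so overlapping and antisense genes cannot be told apart. A second deposited table holds RPKM, which equal those counts over library total and a length per gene, and served 1 alternative. Without molecular identifiers, counts are not independent molecules.

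In R 4.3.3 with edgeR 4.0.16, genes passing filterByExpr by group (minimum count 10, minimum total 15) were kept, 16074 of 22327. TMM factors and 1 model of group, batch and labelled sex over all 29 libraries (20 residual degrees of freedom) gave robust quasi-likelihood F-tests, two-sided, and p was adjusted by Benjamini-Hochberg over the whole table. CPM are TMM-scaled, and shares are of the library total. A second fit took the summed counts of the pan-microglial list as library size. Another fit had group by batch (16 residual degrees of freedom).

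The comparison, the 40 gene lists and the rule for named genes (per direction the 10 called genes of smallest p whose log2 difference was at least 1 in size, up to 4 called members of a list in each direction, all stress response, eIF2 and targeted genes, and called genes of the difference between differences) were chosen with earlier results of these data known. Some genes that this rule names are not reported here. Same-numbered libraries of the 2 groups deviated together (r = 0.24, 0.17, 0.21 and 0.29), as did other numbers of the same batch (0.18 to 0.32), so the replicate block is given where it changes a call. Libraries of a group were no copies of each other. Tested on simulated data of this comparison with 16074 genes, the procedure called 31 of 61 genes changed 4-fold, 8 of 76 changed 2-fold and 1 of 63 changed 1.5-fold, with 2 false calls among 15874. The simulation changed 200 genes, whereas 47.9% of genes were called in the data, so it does not measure false calls under so broad a shift. Alternatives were other size factors and filters, models without sex or batch, single batches, a replicate block, only the 2 groups at issue, limma-voom and limma-trend 3.58.1, DESeq2 1.42.0, every library left out in turn and, added after the data were seen, sex from Y-linked reads and leaving out both iPKR libraries of batch 1.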

Additional observations from a re-analysis of the deposited data

Results flagged for a closer look

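Of 264 sets of 4 libraries tested for a library far from the others, 11 passed Dixon's 95% critical value, where chance flags about 1 in 20. In the plain-tag group replicate 4 stood above the others for the interferon share (gap over range 0.843; 0.063, 0.0358, 0.0613 and 0.209% of counts), for Isg15 (0.842) and for Eif2ak4 (0.939). Its replicate 2 stood below for the oligodendrocyte share (0.882; 0.0533% against 0.0668 to 0.0686%), for Rbfox3 (0.914) and for Grin2b (0.887). Its replicate 3 stood below for Hk2 (0.904), for the immediate-early share (0.867; 0.102% against 0.115 to 0.117%) and for the cell cycle share (0.861; 0.031% against 0.0397 to 0.0411%). In the iPKR group replicate 1 stood above the others for P4hb (0.833; 186, 143, 146 and 138 CPM) and replicate 2 for Egr1 (0.867; 194, 428, 164 and 159 CPM).

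The iPKR difference with 5xFAD was past the threshold of a test against the difference without it for Tlr12 (6.11 on the log2 scale), Ubr3 (-3.62), Gm1673 (-3.08), Fabp5 (-2.81), Sptan1 (-2.20) and Ank (-2.02). Gm1673 stood at 55.1, 52.6, 64.5 and 36.2 CPM with the plain tag and at 10.1, 7.10, 25.5 and 26.2 CPM with iPKR. The difference in batch 1 was past the threshold of a test against that in batch 2 for Mag (3.51), Sqstm1 (2.89), App (2.76), Sod2 (2.32) and Atg7 (-2.39).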

How the results depend on the processing

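The count of genes called was 6168 to 8281 under other size factors, filters, models and tools, and 4395 and 7903 (the latter scaled to pan-microglial genes) in batch 2 alone, where fewer libraries were tested. With one library left out it was 6881 to 7402, or 11874 to 13392 scaled to pan-microglial genes, and 8577 to 8975 without 5xFAD. With the replicate block the count was 7079, and the calls it removed among named genes stand beside them in the text. By limma-trend on RPKM 61.7% of calls were higher, against 52.1% with edgeR, and 64.5% against 53.3% without 5xFAD. The median over all genes tested moved from 0.21 to 0.29 with RLE or upper-quartile factors, 0.05 with a stricter filter and 0.42 with none, and changes near that size depend on it.

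The 6 genes of the difference between differences became 11 with a stricter filter, 3 with the replicate block, 3 with limma-voom, 118 with DESeq2 (which gave 634 genes no adjusted p), 12 with sex from Y-linked reads, 363 without both iPKR libraries of batch 1, and 0 to 103 with one library left out. The 166 genes of the batch difference became 4 to 781 with one left out. The cause was not tested.

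These log2 differences changed sign. Mef2c (-0.09) was 0.02 with RLE factors and DESeq2, 0.03 with upper-quartile factors, 0.17 without batch, 0.07 with only the groups compared, 0.18 in batch 1 alone, 0.20 by limma-trend, and 0.01 and 0.07 without iPKR replicate 3 or 4 (-0.42 to 0.07 with one library left out). H2-Aa was 1.38 in batch 2 alone, 0.64 with limma-voom, 0.17 without iPKR replicate 2 (-1.35 to 0.17 with one left out) and 0.75 without both iPKR libraries of batch 1, and -0.15 in batch 1 alone when scaled. In batch 2 alone and without both of those libraries, Sqstm1 was -0.67 and -0.63, Sod2 -0.29 and -0.33, Mag -0.63 and -0.56, and scaled Cst7 0.49 and 0.17. App was -0.02 without both, and Eif2ak4 0.05 by limma-trend. Scaled Trem2 was 0.27 in batch 2 alone, 0.01 with the replicate block, 0.16 with every other gene of the reference list, and 0.05 to 0.10 without plain-tag replicate 1 (0.09) or 2 or iPKR replicate 2 or 4 (-0.13 to 0.10 with one left out). Over all named genes and settings 2213 values kept direction and side of the threshold, 137 fell short of it, 14 newly passed it and 31 changed sign. With 1.662 to 12.496 M counts a library, genes at a few CPM rest on few reads, and no absence is claimed for them.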

Other observations

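Per library total, cell cycle genes stood lower in the iPKR libraries as well. Of 18 tested, 8 fell and 0 rose (median log2 difference -1.68), and their summed share of counts was 0.0405, 0.0397, 0.031 and 0.0411% with the plain tag and 0.0202, 0.017, 0.0185 and 0.0153% with iPKR, without overlap and with little difference between batches. Of 24 nuclear genes of oxidative phosphorylation, 5 rose and 6 fell (median -0.25), near the 25.0% and 23% of all genes tested. Their summed share was still higher with iPKR, at 0.66, 0.595, 0.631 and 0.604% with the plain tag and 1.26, 1.36, 0.705 and 0.704% with iPKR, without overlap and highest in batch 1. The 7 mitochondrially encoded genes that were tested rose. Of 15 lipid droplet genes 2 rose and 6 fell (median -0.85).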
